A study of Homo sapiens with 6 samples.

Results

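The aldehyde dehydrogenases examined here are 10 genes of the ALDH family, taken by gene symbol from the deposited gene table. ALDH1A1, ALDH1A2, ALDH1A3, ALDH1B1, ALDH2, ALDH3A1, ALDH3A2, ALDH3B1, ALDH5A1 and ALDH7A1 were all found among its 16798 genes. Bulk RNA-seq had been performed on COV434 cells, a human line labelled as granulosa cells (GCs). The labels give the 3 controls as WT without a treatment. The 3 treated samples are given as CTX genotype, CTX-Induced, and received 4HC at 15 µM over 24 h, and the growth in DMEM with serum was shared by both groups. 4HC (4-hydroxycyclophosphamide) is the active metabolite of cyclophosphamide (CTX), so the treated cells received the drug in the form that aldehyde dehydrogenases can act on. The dose was the concentration that the study chose from cell viability, and the samples come from a single cell line. The labels do not say whether the 3 samples of a group were grown separately, and p-values then measure only the spread between these samples, which may be technical.

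Aldehyde dehydrogenases oxidize aldehydes to carboxylic acids with NAD or NADP as the cofactor. 4HC is in equilibrium with its open form aldophosphamide, which either breaks down to phosphoramide mustard, the DNA-alkylating agent, and acrolein, or is oxidized by aldehyde dehydrogenase to the inactive carboxyphosphamide. ALDH1A1 is best known for this oxidation, with ALDH3A1 and ALDH5A1 also credited with it, and cells rich in ALDH1A1 are known to tolerate activated CTX. The other members mostly clear aldehydes of normal metabolism, among them retinaldehyde, acetaldehyde, fatty aldehydes and intermediates of amino acid breakdown.

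The promoters of the members on which the results turn are shown first, because ALDH1A1 held most of the family's TPM and ALDH5A1, ALDH7A1 and ALDH1B1 changed with 4HC. The 250 bases before the RefSeq start of each gene were read from the RefSeq table of GRCh38.p14, printed 5′ to 3′ on the strand of the gene. Capitals mark exact matches to 5 short motifs, of which 4 were searched on both strands, namely the antioxidant response element core TGACNNNGC, the dioxin response element core GCGTG, the CCAAT box and the GC box GGGCGG. The TATA box, TATAAA, was searched on the strand of the gene only. In the printed promoters no matches overlapped each other. The ALDH1A1 window is chr9:72953054-72953303 (minus strand), that of ALDH5A1 is chr6:24494719-24494968 (plus strand), that of ALDH7A1 is chr5:126595220-126595469 (minus strand) and that of ALDH1B1 is chr9:38392452-38392701 (plus strand).
ALDH1A1: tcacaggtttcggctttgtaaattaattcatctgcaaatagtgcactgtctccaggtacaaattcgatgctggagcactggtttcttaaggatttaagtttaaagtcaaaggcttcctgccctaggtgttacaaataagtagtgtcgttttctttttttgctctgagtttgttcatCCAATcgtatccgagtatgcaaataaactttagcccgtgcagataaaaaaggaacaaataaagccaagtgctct
ALDH5A1: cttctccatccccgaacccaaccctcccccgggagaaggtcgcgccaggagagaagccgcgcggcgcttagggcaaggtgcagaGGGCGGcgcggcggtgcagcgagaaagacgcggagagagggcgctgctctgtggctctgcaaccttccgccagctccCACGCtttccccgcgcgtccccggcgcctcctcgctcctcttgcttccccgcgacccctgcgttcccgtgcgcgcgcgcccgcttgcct
ALDH7A1: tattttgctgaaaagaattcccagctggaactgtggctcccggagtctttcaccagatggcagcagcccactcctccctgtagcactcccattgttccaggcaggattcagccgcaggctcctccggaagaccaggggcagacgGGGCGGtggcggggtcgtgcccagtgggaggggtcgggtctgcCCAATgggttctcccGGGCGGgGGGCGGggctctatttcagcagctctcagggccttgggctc
ALDH1B1: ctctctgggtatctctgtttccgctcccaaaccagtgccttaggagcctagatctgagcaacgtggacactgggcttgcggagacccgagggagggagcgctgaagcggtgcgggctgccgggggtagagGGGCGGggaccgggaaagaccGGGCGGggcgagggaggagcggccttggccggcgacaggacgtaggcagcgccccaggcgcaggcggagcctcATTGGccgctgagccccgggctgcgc

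The ALDH1A1 promoter had the lowest GC content of the 8 members with a promoter sequence, but not the fewest CG dinucleotides. Its GC content was 38.4% with 6 CG dinucleotides, against 70.4% with 23 for ALDH1B1, 72% with 33 for ALDH5A1 and 64% with 11 for ALDH7A1. Among the members not printed, ALDH3B1 had 3 CG dinucleotides and ALDH3A2 had 9, while ALDH1A2 had 33 and ALDH1A3 had 38. The medians over 13447 promoters of genes in the table were 63.6% and 19. The ALDH1A1 window held a CCAAT box 74 bases before the start and no GC box, and 34.7% of all promoters held a CCAAT box. The ALDH7A1 window held 3 GC boxes and a CCAAT box, ALDH1B1 held 2 GC boxes and a CCAAT box, and ALDH5A1 held a GC box and a dioxin response element core. A GC box was found in 61.6% and a dioxin response element core in 42.1% of all promoters. The antioxidant response element core, found in 11.7% of all promoters, and TATAAA, found in 4.95%, had no match in any of the 8 members for which the table held a promoter. These matches describe the letters of the windows only.

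In untreated cells the 10 members fell into 5 expressed genes and 5 genes near the limit of detection, and ALDH1A1 dominated. Levels between genes are compared as TPM (a unit that the authors scaled to transcript length and to the same total in every sample). ALDH1A1, a cytosolic retinaldehyde dehydrogenase, was measured at 475, 460 and 496 TPM in control replicates 1 to 3, and it ranked 242 among the 16798 genes by its control mean. It made up 79.7% to 80.8% of the summed TPM of the 10 members in each control. ALDH1B1, a mitochondrial enzyme related to ALDH2, followed at 48.9 ± 1.0 TPM (SD, n = 3), with ALDH1A1 9.75-fold above it. ALDH7A1, which oxidizes an intermediate of lysine breakdown, was at 39.3 ± 1.15 TPM. ALDH3A2, the fatty aldehyde dehydrogenase of the endoplasmic reticulum, was at 21.6 ± 1.22 TPM. ALDH5A1, the succinate semialdehyde dehydrogenase of GABA breakdown, was at 6.09 ± 0.217 TPM. The 3 control values of each of these 5 genes lay apart from those of its neighbours in the order. Between ALDH5A1 and the next member, ALDH3B1, there was a 21.5-fold step.

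**Figure D1:**
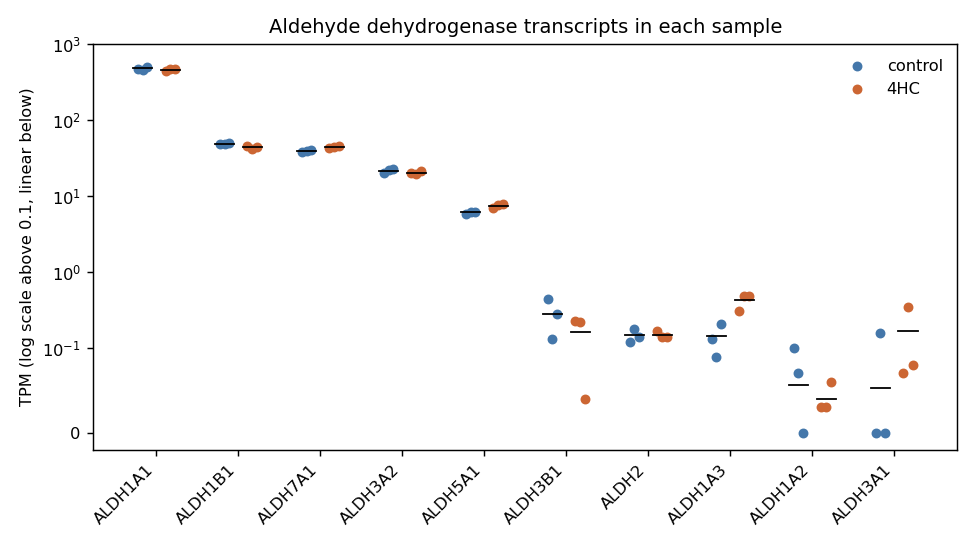
TPM of the 10 members in every sample, on an axis that is logarithmic above 0.1 TPM and linear below; points are samples, short black lines are means of 3 samples, blue is control and orange is 4HC. ALDH1A1 lies between 460 and 496 TPM in control and between 439 and 469 TPM in 4HC. Of the others, 4 members lie between 5.84 and 50.1 TPM, and 5 lie below 0.5 TPM.

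Of the 5 low members, none reached 0.5 TPM in any sample. ALDH2, the mitochondrial enzyme known for acetaldehyde clearance, had 11.4, 17.6 and 14 expected counts in the controls and 16.7, 14.1 and 14 in 4HC, which is 0.12 to 0.18 TPM. ALDH3A1, an enzyme abundant in the cornea and stomach, had 0, 2 and 0 counts in the controls and 1, 5 and 1 in 4HC. ALDH1A2, a retinaldehyde dehydrogenase of the embryo, had 3, 2 and 0 counts in the controls and 1, 1 and 2 in 4HC. A count of 0 in a sample allows up to 3 counts at this depth, so no fold change is given for ALDH3A1 and ALDH1A2. ALDH3B1, an enzyme of lipid-derived aldehydes, had 10, 3 and 7 counts in the controls and 6, 5 and 1 in 4HC, and its groups overlapped. Neighbours in the order of the 5 low genes were not separated, since their control ranges overlapped from each gene to the next. Further apart in the order, ALDH3B1 and ALDH2 lay above ALDH1A2 in all control TPM values.

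After 4HC, 2 members rose (ALDH5A1 and ALDH7A1), 1 fell (ALDH1B1), and the dominant ALDH1A1 did not pass the test. Of the 10 members, 6 had enough counts for edgeR's quasi-likelihood test, which was run on all 12368 genes that passed its filter, with Benjamini-Hochberg adjusted p-values over these genes. The 4 that did not were ALDH1A2, ALDH1A3, ALDH3A1 and ALDH3B1. Across all tested genes 36.4% were called at an adjusted p-value under 0.05, 19.2% higher and 17.1% lower in 4HC. The 3 calls among 6 members are to be read against that background. The median log2 fold change was 0.005 over the 6 members and 0.005 over all genes tested. At the threshold of the study for DEGs, a fold change of at least 2 with an unadjusted p-value under 0.05, 0 of the 6 members passed, against 1.15% of all tested genes. In DESeq2, run without the edgeR filter, ALDH1A3 passed this threshold. The share of all genes that did so in DESeq2 was not calculated. Without overlap between groups were 3 of the 6 (ALDH5A1, ALDH7A1 and ALDH1B1), against 45.3% of all tested genes. The values that follow are TMM-normalised CPM, the counts divided by the effective library size and not by gene length, which compare samples and not genes. In bulk samples, fewer cells of a type and less RNA per cell cannot be told apart.

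ALDH1A1 (gene ID 216, GRCh38 chromosome 9, 72900671 to 72953053) had 549, 536 and 569 CPM without treatment. With 4HC the values were 507, 542 and 545. The groups overlapped, with the lowest value in 4HC replicate 1. Its log2 fold change of -0.05 had a standard error of 0.033 and a 95% interval from -0.12 to 0.01, with an adjusted p-value of 0.202 in edgeR. All of its reads were assigned to a single RefSeq transcript, NM_000689, with 13 exons.

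ALDH5A1 had the largest change among the tested members. The gene (ID 7915) lies on chromosome 6, 24494969 to 24539282. Its controls had 18.1, 19.4 and 19.2 CPM and its 4HC samples 21.6, 23.7 and 24.2, so that every treated sample lay above every control. Among all tested genes 23.4% had all 3 treated samples above all 3 controls. This was a 1.23-fold increase, or 0.29 on the log2 scale with a standard error of 0.071 (edgeR adjusted p = 0.000849), and 12.2% of the tested genes had a log2 fold change as high or higher. The transcript NM_001080 with 10 exons took 90.9% of the gene's reads in control and 91.2% in 4HC, with 280 ± 17.3 and 346 ± 38.7 counts and no overlap. The other transcript with reads in both groups, NM_170740, went from 24.6 ± 2.94 to 33.5 ± 48.1 counts, and its spread in 4HC came from a value of 88.6 in replicate 3 against 0 in replicate 2. The first 237 bases of the ALDH5A1 gene overlap the 5′ end of GPLD1 on the opposite strand. GPLD1 had 133 to 160 counts in control and 165 to 176 in 4HC, and the sources used here do not state whether the counting used strand. The part of these reads in the ALDH5A1 values was not tested.

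ALDH7A1 (ID 501, chromosome 5, 126541841 to 126595219) also rose, from control values of 109, 114 and 115 CPM to treated values of 123, 129 and 130, again with no overlap. The increase was 1.13-fold, or 0.18 on the log2 scale with a standard error of 0.04 (edgeR adjusted p = 0.000339). Its reads were divided equally in every sample between NM_001182 and NM_001201377, each with 918 ± 33.4 counts in control and 1040 ± 20.3 in 4HC, so these 2 transcripts were not told apart by the counting.

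ALDH1B1 (ID 219, chromosome 9, 38392702 to 38398665) was the member that fell. Its CPM values were 84.4, 85.6 and 87.2 in control, compared with 80.6, 74.7 and 77.1 after 4HC. All treated samples lay below all controls, as in 21.9% of the tested genes. It fell by 0.15 on the log2 scale with a standard error of 0.044 (edgeR adjusted p = 0.00736). When 4HC replicate 2, its lowest sample, was left out of the edgeR fit, it fell by 0.12 and the call was lost (adjusted p = 0.0624).

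**Figure D2:**
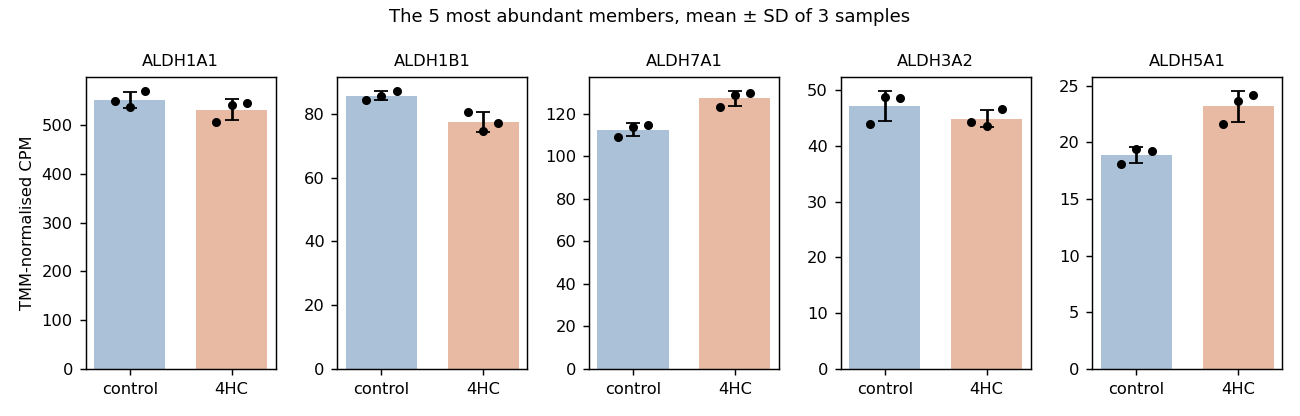
TMM-normalised CPM of the 5 expressed members, each panel with its own axis from 0; bars are means of 3 samples, error bars are SD and points are samples. ALDH5A1 and ALDH7A1 are higher and ALDH1B1 is lower in every 4HC sample, while the groups of ALDH1A1 and ALDH3A2 overlap.

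ALDH3A2 did not pass the test. Control values of 44.0, 48.7 and 48.6 CPM enclosed all but the lowest of the treated values, 44.4, 43.6 and 46.5. The log2 fold change was -0.07, with a 95% interval from -0.18 to 0.04 (edgeR adjusted p = 0.311). Its reads were divided among 7 transcripts. The main transcript, NM_000382, held 83.6% of them in control and 79.7% in 4HC, and NM_001031806, which encodes a longer form, held 10.5% and 15.8%, with overlapping counts for both. ALDH2, with its low counts, had a log2 fold change of 0.06 and a wide 95% interval from -0.57 to 0.70 (edgeR adjusted p = 0.901).

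ALDH1A3, a retinaldehyde dehydrogenase, was below the filter and was the low member whose groups did not overlap. It had 4, 3 and 7 counts in the controls and 10, 16 and 15 in 4HC, with every treated sample above every control. The 23.4% of tested genes that lay so does not cover genes below the filter, for which the share was not calculated. In total this was 14 counts (95% Poisson interval 7.65 to 23.5) against 41 (29.4 to 55.6), intervals that cover counting error only. When genes with at least 1 count were tested, the log2 fold change of ALDH1A3 was 1.52 (edgeR adjusted p = 0.00588), where 13.8% of 16788 genes were called higher. It then also passed the DEG threshold, as did 1.93% of these genes. DESeq2 gave 1.55 with an adjusted p-value of 0.056. When a control or 4HC replicate 1 was left out, ALDH1A3 entered the edgeR test through its counts in 4HC replicates 2 and 3. Its log2 fold change was then 1.43 without control replicate 1, 1.3 without control replicate 2 and 1.92 without control replicate 3. It was 1.71 without 4HC replicate 1. Without 4HC replicate 2 or 3 it stayed below the filter. These fits were thus selected through the group where the gene was high, and they add no support. Antisense and other noncoding RNAs that are annotated across ALDH1A3 were not in the gene table, and whether the counting told them apart by strand is not given in the sources used here. At a mean of 0.836 ± 0.204 CPM in 4HC it stayed far below ALDH1A1 on either scale, with 0.423 TPM. The reads were divided between 2 transcripts in proportions that changed from sample to sample, and both groups of each overlapped.

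The summed TPM of the 10 members was 588.4, 576.9 and 615.6 in the controls and 555.8, 577.5 and 587.5 in 4HC, with overlapping groups. ALDH1A1 held 78.9% to 80.1% of the sum in 4HC. The share of ALDH7A1 lay between 6.47% and 6.83% in the controls and between 7.66% and 7.76% in 4HC. That of ALDH5A1 lay between 0.993% and 1.08% in the controls and between 1.26% and 1.32% in 4HC. The share of ALDH1B1 was 8.14% to 8.4% in control and 7.29% to 8.29% in 4HC, and these ranges overlapped. Without ALDH1A1 the sum was 116.5 ± 3.3 TPM in control and 116.9 ± 1.72 TPM in 4HC.

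**Figure D3:**
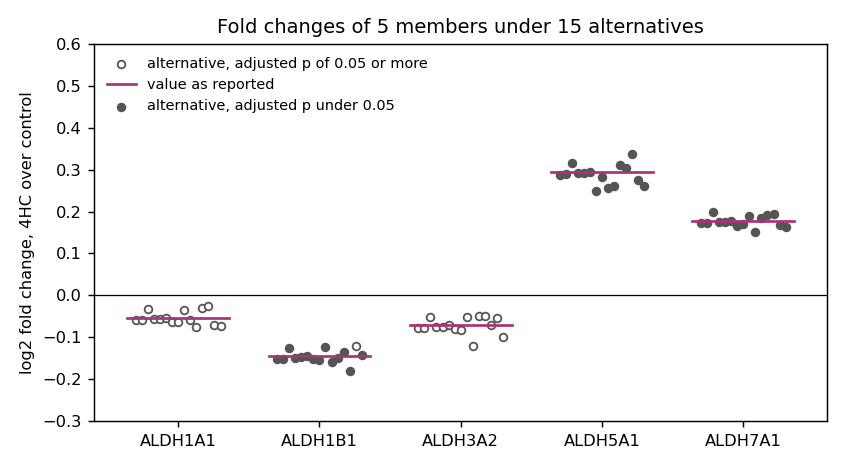
Log2 fold change, 4HC over control, of 5 members as reported (lines) and under 15 alternative analyses (points; other tools, scalings, filters and units, a replicate block, and each sample left out in turn), with open points for an adjusted p-value of 0.05 or more. The points of ALDH5A1 lie between 0.25 and 0.34 and those of ALDH7A1 between 0.15 and 0.20, all filled, while 1 point of ALDH1B1 is open.

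Of the 9 other ALDH genes, 7 were in the table and all 7 were tested, with 2 higher, 1 lower and 4 not called. The share called was 42.9%, against 36.4% of all tested genes. ALDH1L2, the mitochondrial 10-formyltetrahydrofolate dehydrogenase, rose from 1.37 ± 0.0189 to 2.55 ± 0.181 CPM, or by 0.89 on the log2 scale (adjusted p = 0.00111). ALDH4A1, which completes proline breakdown, rose by 0.25 on the log2 scale (adjusted p = 0.000271). ALDH18A1, which starts proline synthesis and was the most abundant of the 7 at 157 TPM in control, fell by 0.13 (adjusted p = 0.00147, all from edgeR). In the plot of fold changes, the members lay between -0.15 and 0.29, and the other ALDH genes between -0.14 and 0.89.

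**Figure D4:**
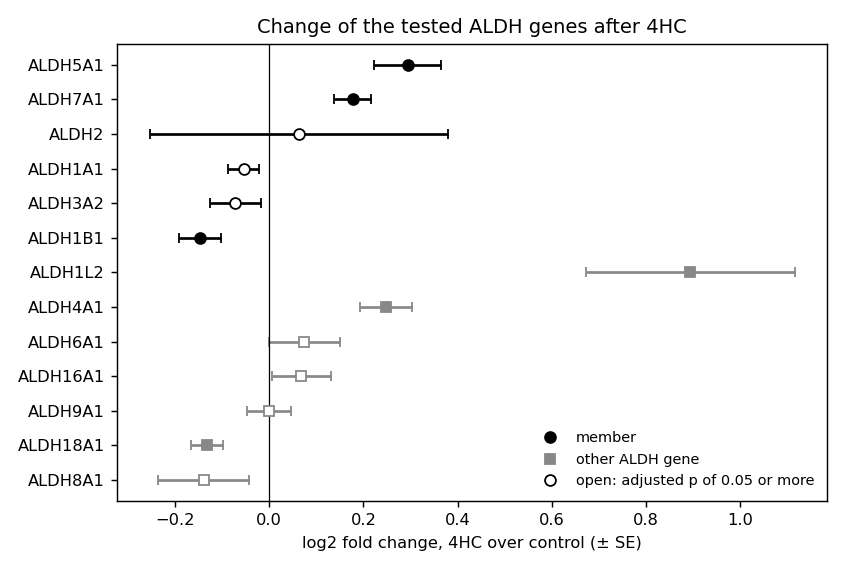
Log2 fold change, 4HC over control, with its standard error for the 13 tested ALDH genes; black circles are members, grey squares are other ALDH genes, and open symbols have an adjusted p-value of 0.05 or more. ALDH5A1 and ALDH7A1 lie above 0 and ALDH1B1 below it, and ALDH1L2 has the largest change at 0.89.

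Enzymes next to the members in drug metabolism were measured as well. Of the 11 genes for P450 activation of CTX, 9 were in the table and 2 were tested. POR, the reductase that supplies electrons to the P450 enzymes and was the most abundant of them at 60.5 TPM, fell from 83.6 ± 2.29 to 75.0 ± 2.91 CPM (edgeR adjusted p = 0.00456). CYP3A5 was at 0.36 to 1.6 CPM in the controls and was not called, and CYP2B6 and CYP3A4, the main activating enzymes of the liver, had means of at most 0.0411 CPM in either group. Of 22 other enzymes that clear aldehydes or related carbonyls, 15 were in the table and 9 were tested, with 4 higher and 5 not called. This was 44.4% called, against 36.4% of all tested genes. AKR7A2, an aldehyde reductase that acts on succinate semialdehyde, the substrate of ALDH5A1, rose from 62.4 ± 2.47 to 77.1 ± 0.509 CPM (edgeR adjusted p = 4.06e-07). The other calls were small. AKR1A1 rose by 0.13 on the log2 scale (adjusted p = 0.0119), CBR1 by 0.14 (adjusted p = 0.0436) and AKR1B1, the most abundant of the list at 156 TPM, by 0.10 (adjusted p = 0.0468, all from edgeR). The call of AKR1A1 was lost without control replicate 3, 4HC replicate 1 or 4HC replicate 2, that of CBR1 under 7 of the 15 alternative analyses and that of AKR1B1 under 11.

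Genes of the retinoid, GABA, lysine and lipid pathways of the members were also measured. Of 20 retinoid genes, 16 were in the table and 11 were tested, with 2 higher, 2 lower and 7 not called. The 36.4% called equalled the share of all tested genes. RDH10, which makes retinaldehyde, the substrate of ALDH1A1, was the most abundant at 194 TPM and fell from 455 ± 6.0 to 403 ± 4.43 CPM (edgeR adjusted p = 1.16e-05). RDH11, a related reductase, fell from 125 ± 3.68 to 104 ± 3.3 CPM (edgeR adjusted p = 5.42e-07). CYP26B1, which breaks down retinoic acid, rose from 0.978 ± 0.213 to 1.95 ± 0.163 CPM (edgeR adjusted p = 0.00187). RXRA, a nuclear receptor, rose by 0.15 on the log2 scale (edgeR adjusted p = 0.0383), a call lost under 9 of 15 alternatives. Of 12 partners in GABA, lysine, sphingolipid and phytanate breakdown, 11 were in the table and 9 were tested, with 2 lower and 7 not called. Here 22.2% were called, below the share of all tested genes. GCDH, a later enzyme of lysine breakdown, fell by 0.25 and SGPL1, which produces a fatty aldehyde that ALDH3A2 oxidizes, fell by 0.19 on the log2 scale (edgeR adjusted p = 0.00164 and 0.000752). PHYH, the most abundant of the list at 38.0 TPM, was not called (edgeR adjusted p = 0.056).

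ALDH3A1 is a known target of AHR, the dioxin receptor, and is often grouped with the NRF2 targets. Of 15 genes of these batteries, 13 were tested, with 3 higher and 10 not called. That is 23.1% called, against 36.4% of all tested genes. HMOX1, the heme oxygenase, rose from 23.9 ± 2.36 to 34.4 ± 1.73 CPM, NQO1, a quinone reductase, from 23.1 ± 0.883 to 31.8 ± 1.7 CPM, and KEAP1, the inhibitor of NRF2, from 82.1 ± 2.44 to 98.4 ± 5.17 CPM (adjusted p = 4.31e-09, 6.61e-08 and 4.03e-06 from edgeR). TXNRD1, the most abundant at 156 TPM, was at 333 ± 10.8 CPM in control and 330 ± 9.5 CPM in 4HC and was not called, nor were GCLM, SRXN1 and GCLC. AHR itself was at 0.14 to 0.24 TPM in the controls and was not called. NFE2L2, the gene of NRF2, was at 130 ± 2.52 CPM in control and 123 ± 2.33 CPM in 4HC. All its treated samples lay below all controls, as in 21.9% of tested genes, and it was not called (edgeR adjusted p = 0.13). Beside the median of 0.005 over all genes, the median log2 fold change was 0.07 over the tested genes of these batteries, 0.07 over the other ALDH genes, 0.10 over the other aldehyde-clearing enzymes, -0.05 over the retinoid genes and -0.04 over the GABA, lysine and lipid partners.

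The total of expected counts was 16133786 to 16702316 per sample, and replicates of a group differed beyond counting noise in every pairing (chi-square divided by the number of genes, 1.7 to 2.46). The granulosa label was not borne out by most of its markers. FOXL2 had 0 counts in the controls and FSHR and CYP19A1 had means of 0.0205 CPM, whereas AMH was at 5.34 TPM in control. WT1 and NR5A2, at 133 and 130 TPM in control, were the abundant markers of the list, and both fell in 4HC, by 0.35 and 0.33 on the log2 scale (edgeR adjusted p = 8.81e-12 and 2.51e-11). Their part in the changes of the ALDH genes was not tested. AMHR2 was not analysed here, and INHA, INHBA, INHBB, NR5A1 and GATA4 had means of at most 0.797 CPM in either group. Among markers of other cell types, DCN was the most abundant at 11.5 TPM, followed by KRT8 at 6.35 TPM, and the 6 that were tested had adjusted p-values of 0.265 to 0.643 in edgeR. The theca and endothelial markers had means of at most 0.204 CPM. SMARCA4, a SWI/SNF subunit that COV434 cells are known to lack as protein, was at 7.56 TPM and its paralog SMARCA2 at 0.03 TPM in control.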

How the data were processed

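Gene-level and transcript-level tables of bulk RNA-seq from 3 control and 3 4HC-treated COV434 samples were used. The authors filtered reads with SOAPnuke and used the Dr. Tom system. Per the submitters' processing notes, HISAT2, Bowtie2 and RSEM 1.3.1 were used with GRCh38.p13, and DESeq2 1.4.5 for testing. The deposited expected counts per gene and transcript were not normalized, and 85.5% of the gene values were whole. In the deposited TPM columns the authors had divided by transcript length and set a common total, and in the deposited FPKM columns by length and library size. Columns of group means and of the authors' fold changes, p-values and q-values were not used, nor was a second gene table with the same values.

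After rounding, edgeR 4.0.16 (R 4.3.3) was run on the gene counts (TMM, filterByExpr, quasi-likelihood test, condition as the only term, Benjamini-Hochberg adjustment over 12368 genes), after a check on simulated data. CPM are TMM-normalised, means carry the SD of 3 samples, and intervals of totals are exact Poisson. Libraries held 16133786 to 16702316 expected counts each, and a count of 0 allows up to 3. The alternatives were DESeq2 1.42.0, its size factors, library size only, no filter, at least 10 counts in every sample, a replicate block, limma 3.58.1 on log2(TPM + 1), log2(TPM + 0.1) or log2(FPKM + 1), and leaving out each sample. They were applied to the called genes of the other lists after the data had been seen.

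The members and gene lists were chosen with earlier results of these data known. All members were named, with up to 4 called genes of each other list by size of change, its most abundant gene and the granulosa markers. CYP3A5, CYP2B6, CYP3A4, GCLM, SRXN1, GCLC, AHR, NFE2L2, DCN, KRT8, SMARCA4 and SMARCA2 were named after their values were seen. Promoters came from the RefSeq table of GRCh38.p14, which matched 8 of the 10 members, and overlapping genes and exon numbers from GENCODE 29. Whether the counting used strand is not given in the sources used here.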

Additional observations from a re-analysis of the deposited data

How the results depend on the processing

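The rises of ALDH5A1 and ALDH7A1 kept their direction and their call in all 15 alternatives, with log2 fold changes of 0.25 to 0.34 and 0.15 to 0.20. ALDH1A1 and ALDH3A2 stayed below 0 and uncalled in all 15, at -0.08 to -0.03 and -0.12 to -0.05. ALDH1B1 stayed below 0 in all 15, at -0.18 to -0.12, and lost its call in 1. The number of members that fell was thus 0 to 1 when a sample was left out, where 13.5% to 15.9% of all genes were called lower. ALDH2, at 0.063, ranged from -0.092 to 0.262 when a sample was left out, below 0 without control replicate 1 and without 4HC replicate 1, never with a call. The number of members that rose was 2 to 3 when a sample was left out, where 15.6% to 18.2% of all genes were called higher. The number past the DEG threshold was then 0 to 1. Without the filter these were 3 and 1, where 13.8% and 1.93% of all genes passed. The additions came in each case from ALDH1A3, which with a sample left out entered only through its 4HC counts. DESeq2, run without the edgeR filter, also passed ALDH1A3 by the DEG threshold. The share of all genes past that threshold was not calculated for DESeq2 or with a sample left out. The log2 ratio of summed TPM was -0.05, was -0.07 to -0.02 when a sample was left out and became 0.004 without ALDH1A1. With library size only, the median of all genes moved from 0.005 to 0.025 and the calls from 19.2% higher and 17.1% lower to 22% and 14%, while limma on log2(FPKM + 1) called 18.3% and 10.9%. The lowest log2 fold changes of ALDH1L2 and CYP26B1, both near 1 CPM, were 0.18 and 0.25, from limma on log2(FPKM + 1), where the pseudocount exceeds the levels.

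The replicate numbers share no stated source, and the deviations of same-numbered samples correlated at -0.01 to 0.06 over genes. With the replicate block, 2 members rose and 1 fell, as without it, and 18.3% of all genes were called higher and 15.8% lower. Depth limited the 5 members under 20 counts, and the log2 interval of ALDH2 spanned -0.57 to 0.70. Whether the counting used strand is not given in the sources used here, which bears on ALDH5A1 and ALDH1A3. ALDH1A2, ALDH3A1, ALDH3A2 and ALDH3B1 also overlap genes annotated on the opposite strand.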
